A study of Mus musculus with 10 samples.

Results

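The 5 arrays described here held RNA from the cortex of wild-type mouse embryos at stage E10.5, and they were chosen by their label alone from the 10 arrays of the series. The embryos were of the C57BL/6 background. Each array carried the pair of cortices of 1 embryo, dissected on ice, with RNA extracted in Trizol and 300 ng of it labelled for the Affymetrix whole-transcript 1.0 ST GeneChip. The other 5 arrays came from Magoh Mos2 heterozygous embryos, Magoh being an exon junction complex gene, and were not compared with the wild type here. The labels call the 5 arrays biological replicates. With 1 array per embryo, the embryo, its dissection and its array cannot be told apart.

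At this stage the wall of the forebrain is a sheet of dividing neuroepithelial cells that span it from the ventricle to the outer surface, and only the earliest neurons have begun to leave the cycle. Notch signalling and SoxB1 transcription factors keep these cells as progenitors, while proneural factors and Notch ligands mark those about to become neurons. The sheet is patterned by its edges, with the cortical hem at the dorsal midline and the ganglionic eminences on the ventral side, and it is wrapped in head mesenchyme and skin ectoderm. Blood at this age is carried largely by nucleated primitive red cells with embryonic globins, and macrophages and vessels are just entering the brain.

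Levels were deposited on the log2 scale, 1 probe set was kept per gene (the one with the highest mean over the 5 arrays), and 20080 genes were measured in this way. Each array also carried 5222 negative-control probe sets, whose target sequences no source used here states. Their median lay between 5.47 and 5.63 and their 95th percentile between 8.37 and 8.58 on the 5 arrays. Their 99th percentile lay between 10.56 and 10.77, and the highest control between 13.46 and 13.65. Only 14 genes exceeded the highest control on every array. Some controls were thus as high as the brightest genes, and their upper percentiles are not a plain background level. A gene was called above the controls where its level exceeded the 95th percentile of the same array at an adjusted p under 0.05 (limma, Benjamini-Hochberg over all genes), and called below in the same way. By this rule 24.8% of genes were above (4971), 70.7% were below (14206) and 4.5% were not separated from it (903). Against the median of the controls in place of the 95th percentile, 74.9% of genes were above. A gene called below can therefore still be expressed, and "below" does not mean absent.

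The spread between embryos was small. The standard deviation over the 5 arrays had a median of 0.09 log2 units over all genes and 0.07 over genes called above, and the arrays correlated pairwise at 0.996 to 0.997 across genes, which are not independent replicates. limma gave every gene the same standard error of 0.0653, so the 95% confidence interval of each difference from the controls was ± 0.128 and the call amounts to a mean level of 8.66 or more. Array 4 stood apart from the other arrays. Its control 95th percentile was 8.37, against 8.55 to 8.58 on the other arrays, and 6121 genes exceeded it there, against 5203 to 5316 elsewhere. Without array 4 the number of genes called above was 4898. The level of a probe set also depends on its probes, so levels below are read against the controls and not between genes.

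**Figure D1:**
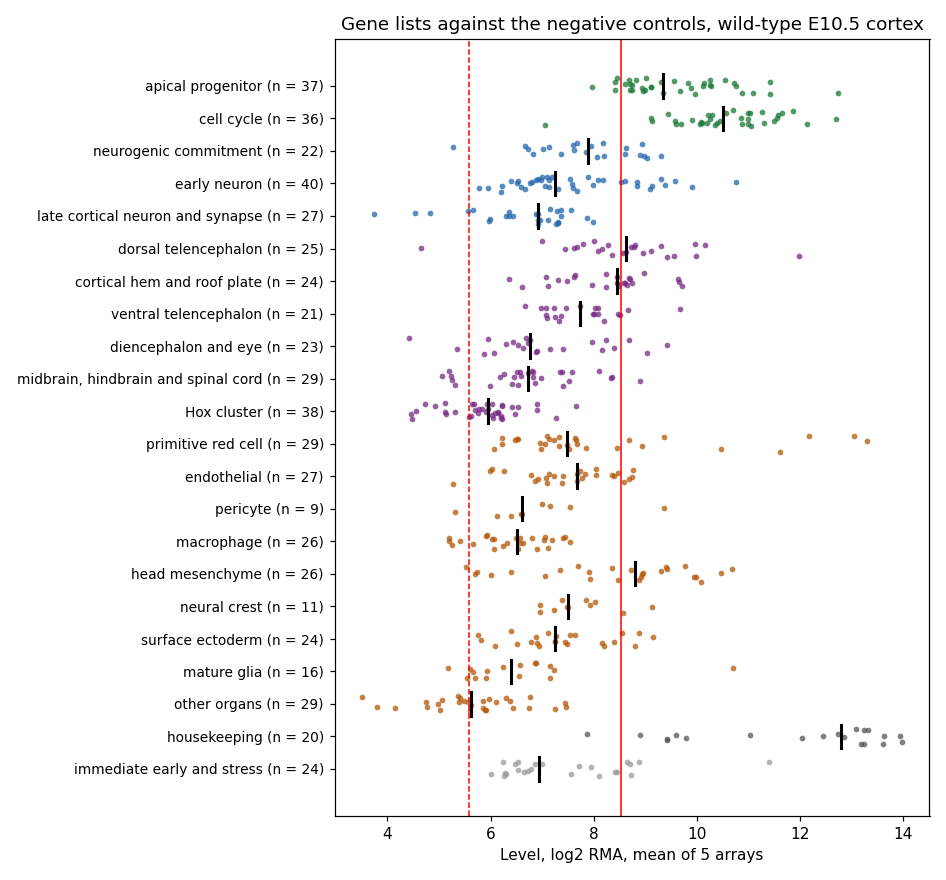
Mean level over the 5 wild-type arrays (log2) of each measured member of the gene lists, 1 point per gene, with a tick at the median of each list, the median of the negative controls as the dashed line and their 95th percentile as the solid line. Cell cycle and housekeeping genes lie almost wholly to the right of the 95th percentile of 8.53, and the late neuron, macrophage, Hox and other-organ genes lie to its left.

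Progenitor genes had the highest share above the controls of the 4 classes described (progenitor, neuron, regional and non-neural). Of 73 measured progenitor and cell cycle genes, 67 (91.8%) were above the controls and 2 were below, against 24.8% above over all genes. In RNA of whole tissue, fewer cells of a type and less RNA per cell cannot be told apart. Which cells of the dissected tissue this RNA came from was not tested, and 14 of 26 head mesenchyme genes were above in it too. Of the 37 apical progenitor genes 32 were above, and their median level was 9.35 against 7.19 over all genes. Sox2, the SoxB1 factor that holds neuroepithelial identity, measured 10.33, 10.36, 10.29, 10.23 and 10.22 on arrays 1 to 5 (mean 10.29 ± 0.06, SD, n = 5), which exceeded 98.6% of the controls. The 5 arrays lay close together, and none was at the level of the control threshold. The intermediate filament gene Nes, the classic neuroepithelial marker, had a mean of 10.25 ± 0.05 (SD, n = 5), and the related filament gene Vim had 12.75 ± 0.06 (SD, n = 5). Vim was 1 of 5 apical progenitor genes above the 99th percentile of the controls, with Id4, Hmga1, Tead2 and Igdcc3. Over all genes, 632 of 20080 were above that percentile.

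Pax6, which patterns the cortex and drives its progenitors, measured 9.41, 9.45, 9.46, 9.10 and 9.34 (mean 9.35 ± 0.15, SD, n = 5). Its level was lowest on array 4 and close together on the others. Among Notch effectors, Hes5 had a mean of 9.83 ± 0.05 (SD, n = 5) and Hes1 of 8.74 ± 0.06 (SD, n = 5), both called above, as was the receptor Notch1 (9.68 ± 0.11, SD, n = 5). The early growth regulators Lin28a (8.75 ± 0.14, SD, n = 5), Lin28b (9.30 ± 0.14, SD, n = 5) and Hmga2 (10.77 ± 0.07, SD, n = 5) were above as well. The RNA-binding proteins Lin28a and Lin28b block maturation of let-7 microRNAs, and Hmga2 is a chromatin protein of early stem cells.

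Of the apical progenitor genes that were not called above, Slc1a3, Fabp7 and Ptprz1 are known chiefly from radial glia of later stages. Slc1a3, the glial glutamate transporter, was the only one of the 37 called below (7.96 ± 0.11, SD, n = 5). Fabp7, the brain fatty acid binding protein, measured 8.85, 8.87, 8.63, 8.50 and 8.23 (mean 8.62 ± 0.26, SD, n = 5) and was not separated from the threshold. It was above the threshold of its array on 4 of 5 arrays and lowest on array 5, and without array 5 it was called above. Ptprz1, a receptor phosphatase of glia, was not separated either (8.41 ± 0.22, SD, n = 5), nor were the membrane protein Prom1 (8.45 ± 0.04, SD, n = 5) and the Hedgehog effector Gli2 (8.42 ± 0.10, SD, n = 5). Without array 4 Prom1 and Gli2 were called below, and without array 1 so was Ptprz1.

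Cell cycle genes had the highest share of the neural lists, with 35 of 36 above the controls and a median level of 10.51. The proliferation marker Mki67 measured 11.07, 10.96, 10.98, 11.01 and 10.94 (mean 10.99 ± 0.05, SD, n = 5). The D-type cyclins Ccnd1 and Ccnd2, which carry cells through G1, had means of 11.50 ± 0.04 and 12.14 ± 0.11 (SD, n = 5). Their partner kinase Cdk4 had a mean of 12.71 ± 0.08 (SD, n = 5). Replication genes lay well above the threshold, with Pcna, the polymerase clamp, at 11.87 ± 0.06 and the ribonucleotide reductase subunit Rrm2 at 11.26 ± 0.02 (SD, n = 5). The 6 measured members of the Mcm helicase, Mcm2 to Mcm7, were all above, between 10.39 and 11.31. Of mitotic genes, the topoisomerase Top2a had a mean of 11.56 ± 0.08, the cyclin Ccnb1 of 11.58 ± 0.05 and the anaphase activator Cdc20 of 10.09 ± 0.05 (SD, n = 5). Gmnn, which blocks relicensing of replication origins, was the only member called below (7.06 ± 0.09, SD, n = 5). Of the 36 genes, 16 exceeded the 99th percentile of the controls, against 632 of all 20080 genes.

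Most of these cell cycle genes had a promoter sequence feature that the choice of genes did not use. Promoter sequences of the 250 bases before the annotated start were available for 29 of them in the RefSeq table of GRCm38.p6. The pentamer CCAAT, searched on both strands as CCAAT or ATTGG, was present in 24 of 29 (82.8%), against 35.8% of all 15771 promoters and 38.6% of those of genes called above. In the other lists the share ran from 12.5% of pericyte to 63.6% of midbrain, hindbrain and spinal cord promoters. It was 57.1% in Hox promoters, so a high share was also found in lists called almost wholly below. The words CCAAT and ATTGG can overlap in shared letters, and each was then counted. Several matches were present in 55.2% of the cell cycle promoters and in 15.8% of those of called genes. The promoters of Birc5, Ccne1, Cdk4, Nusap1 and Tyms held none in this window. CCAAT is the core of the site of the trimeric factor NF-Y, and a match of the letters does not show binding. The motifs were chosen after the levels were seen, so these shares are a description. The promoter of Top2a (chr11:99024190-99024439, minus strand) is shown because it held 6 matches, and that of Cdc20 (chr4:118437344-118437593, minus strand) because its 2 matches lie near the start. Both are written 5′ to 3′ on the strand of the gene, with each CCAAT or ATTGG in capitals.
Top2a: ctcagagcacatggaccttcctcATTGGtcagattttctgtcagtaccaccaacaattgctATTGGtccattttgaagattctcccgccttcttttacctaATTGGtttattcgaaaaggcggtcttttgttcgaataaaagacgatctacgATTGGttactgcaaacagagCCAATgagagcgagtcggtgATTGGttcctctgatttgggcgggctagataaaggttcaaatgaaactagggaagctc
Cdc20: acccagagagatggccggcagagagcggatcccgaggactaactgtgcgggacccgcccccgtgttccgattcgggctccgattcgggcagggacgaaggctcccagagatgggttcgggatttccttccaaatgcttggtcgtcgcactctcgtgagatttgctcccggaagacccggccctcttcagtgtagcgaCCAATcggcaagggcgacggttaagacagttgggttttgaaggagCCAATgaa

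Over all promoters, the share of genes called above the controls was larger in classes with more CpG dinucleotides in the window. Of genes with 0 to 4 CpG in the 250 bases, 4.22% were called above (n = 4738). The share was 24.8% with 5 to 14 (n = 4786), 39.4% with 15 to 24 (n = 4010) and 46.9% with 25 or more (n = 2237). The median number was 18 in genes called above, 7 in genes called below and 1 in olfactory receptor genes. The hexamer TATAAA, searched on both strands, was present in 11.5% of all promoters, in 6.08% of those of called genes and in 0 of the 29 cell cycle promoters, against 39.7% of those of olfactory receptor genes. The pentamer CACCC, searched likewise, was present in 54.4% of all promoters and in 54.7% of those of called genes. Genes are not independent, and families with like promoters are counted gene by gene.

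**Figure D2:**
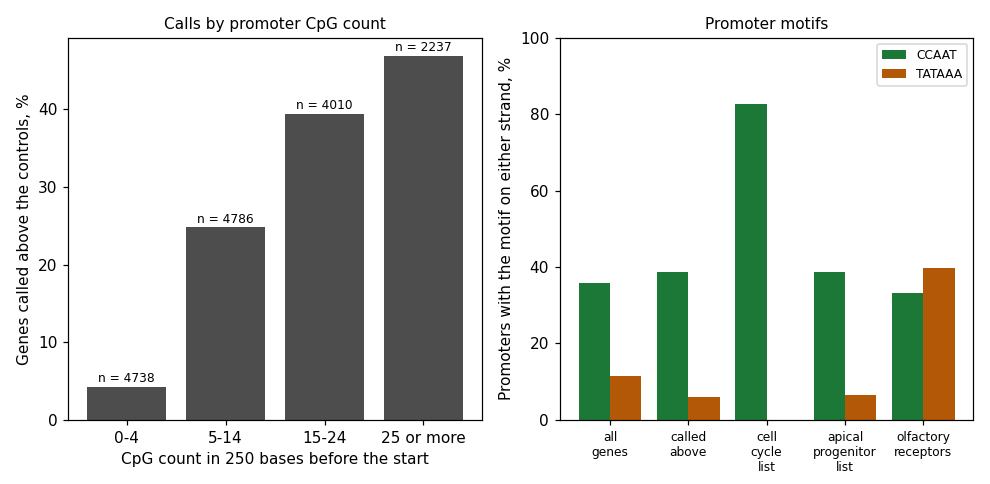
Share of genes called above the controls by the number of CpG dinucleotides in the 250 bases before the start, and share of promoters with CCAAT or TATAAA on either strand by gene set, as bars from 0%. The called share goes from 4.22% in the lowest CpG class to 46.9% in the highest, and CCAAT is present in 82.8% of cell cycle promoters against 35.8% of all, with TATAAA in none of them.

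The promoters of 4 genes show the range of these features, with each CG, and TATAAA as read on the strand of the gene, in capitals. Sox2 (chr3:34649745-34649994, plus strand) and Lhx2, a selector gene of the cortex (chr2:38339031-38339280, plus strand), were called above and held 27 and 25 CpG. The embryonic globin gene Hba-x (chr11:32276350-32276599, plus strand) was called above with 1 CpG and a TATAAA 28 bases before the start. Alb, the liver albumin gene (chr5:90460620-90460869, plus strand), was called below and held 2 CpG.
Sox2: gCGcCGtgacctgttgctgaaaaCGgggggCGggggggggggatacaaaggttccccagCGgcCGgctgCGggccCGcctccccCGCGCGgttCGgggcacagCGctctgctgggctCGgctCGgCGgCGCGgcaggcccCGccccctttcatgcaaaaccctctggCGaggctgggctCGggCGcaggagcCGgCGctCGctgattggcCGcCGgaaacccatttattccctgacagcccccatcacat
Lhx2: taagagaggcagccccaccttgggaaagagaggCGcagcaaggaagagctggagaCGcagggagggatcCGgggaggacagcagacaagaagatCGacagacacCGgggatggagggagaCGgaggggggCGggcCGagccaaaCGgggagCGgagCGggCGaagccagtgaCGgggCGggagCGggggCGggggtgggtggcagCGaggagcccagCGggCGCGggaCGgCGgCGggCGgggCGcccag
Hba-x: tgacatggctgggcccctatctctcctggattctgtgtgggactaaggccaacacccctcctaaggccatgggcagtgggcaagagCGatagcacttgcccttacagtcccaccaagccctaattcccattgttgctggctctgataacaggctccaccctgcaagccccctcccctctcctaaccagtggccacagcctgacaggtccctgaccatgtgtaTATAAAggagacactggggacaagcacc
Alb: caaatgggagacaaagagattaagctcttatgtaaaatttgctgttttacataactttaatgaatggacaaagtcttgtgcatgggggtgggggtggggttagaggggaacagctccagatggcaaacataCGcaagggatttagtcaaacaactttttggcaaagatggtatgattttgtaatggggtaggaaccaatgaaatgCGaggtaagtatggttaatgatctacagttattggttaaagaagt

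Genes of neurogenic commitment were mostly below the controls, with 5 of 22 above, 2 not separated and 15 below. The share above was 22.7%, close to the 24.8% of all genes. The proneural factors that open the neuronal programme of the cortex were among those called below. Neurog2 measured 7.52, 7.86, 7.68, 7.43 and 7.65 (mean 7.63 ± 0.17, SD, n = 5), and Neurog1 had a mean of 7.68 ± 0.14 (SD, n = 5). No array of either gene reached its control threshold. Eomes, the factor of intermediate progenitors, measured 8.10, 8.07, 7.67, 7.71 and 7.67 (mean 7.84 ± 0.22, SD, n = 5) and was higher on arrays 1 and 2 than on the other arrays. The Notch ligand Dll1 measured 8.54, 8.75, 8.61, 8.47 and 8.69 (mean 8.61 ± 0.11, SD, n = 5) and was not separated, with 4 of 5 arrays above their threshold. Among the members called above were Hes6, an antagonist of Hes1 (9.03 ± 0.12, SD, n = 5), Gadd45g (8.97 ± 0.20, SD, n = 5), the Notch glycosyltransferase Mfng (8.95 ± 0.07, SD, n = 5) and the Notch ligand Jag2 (9.31 ± 0.09, SD, n = 5).

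Early neuron genes were called above in 9 of 40 cases (22.5%), near the 24.8% of all genes, with 2 not separated and a median level of 7.25 against 7.19 over all genes. Cytoskeletal genes were found on both sides of the threshold. Tubb3, the neuronal tubulin, measured 10.90, 10.84, 10.75, 10.75 and 10.57 (mean 10.76 ± 0.13, SD, n = 5), which exceeded 99% of the controls. It was above the threshold on every array. The microtubule regulators Map2 (9.13 ± 0.13, SD, n = 5) and Stmn2 (8.84 ± 0.21, SD, n = 5), the growth cone protein Gap43 (9.09 ± 0.11, SD, n = 5) and the neuronal RNA-binding protein Elavl3 (8.84 ± 0.08, SD, n = 5) were above too. The neurofilament genes Nefl (6.23 ± 0.22, SD, n = 5) and Nefm (6.50 ± 0.09, SD, n = 5) and the tau gene Mapt (6.66 ± 0.15, SD, n = 5) were called below, and Stmn3 was not separated (8.61 ± 0.08, SD, n = 5). Also above were the collapsin response mediators Crmp1 and Dpysl3, Nsg1 and Tagln3, between 9.30 and 9.90.

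Transcription factors and secreted markers of the first cortical neurons were called below. Tbr1, the factor of early-born glutamatergic neurons, measured 6.85, 7.23, 6.66, 6.56 and 6.71 (mean 6.80 ± 0.26, SD, n = 5). Array 2 was the highest, and no array reached the threshold. Reln, secreted by Cajal-Retzius cells, had a mean of 7.13 ± 0.02 (SD, n = 5), and the migration gene Dcx had 7.89 ± 0.19 (SD, n = 5). Trp73, Lhx1, Lhx5 and Calb2, further markers of these early cells, were called below at 5.95 to 7.54.

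Of 27 genes of later cortical neurons and synapses, 0 were called above by limma, at an unadjusted p under 0.05 as well, and all 27 were called below, with a median level of 6.92. They included the upper-layer factor Cux2 (7.31 ± 0.06, SD, n = 5), the vesicular glutamate transporter Slc17a7 (6.36 ± 0.16, SD, n = 5) and the kinase Camk2a (7.15 ± 0.08, SD, n = 5). Bcl11b, a factor of deep-layer neurons, had 7.87 ± 0.13 (SD, n = 5). Against the median of the controls, 22 of the 27 (81.5%) were above, next to 74.9% of all genes. Mature glia genes were below in 15 of 16 cases (93.8%, against 70.7% of all genes), among them Gfap (5.69 ± 0.15, SD, n = 5) and Mbp (7.15 ± 0.06, SD, n = 5). The exception was the gap junction gene Gja1 (10.71 ± 0.04, SD, n = 5), which neuroepithelial cells also use.

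Genes of the dorsal telencephalon, the region that the label names, were above the controls in about as many cases as not. Of 25 dorsal telencephalon genes, 12 (48%) were above, against 24.8% of all genes, 2 were not separated and 11 were below. Lhx2, whose promoter is shown above, measured 10.17, 10.28, 10.13, 10.04 and 10.20 (mean 10.16 ± 0.09, SD, n = 5). It was above the threshold on every array. Nr2f1, the orphan receptor that patterns the caudal cortex, had 11.99 ± 0.05 (SD, n = 5) and was the only regional gene past the 99th percentile of the controls. Its relative Nr2f2 (9.97 ± 0.16, SD, n = 5), the Hedgehog effector Gli3 (9.98 ± 0.09, SD, n = 5), the progenitor factor Nr2e1 (9.55 ± 0.07, SD, n = 5) and Dmrta2 (8.78 ± 0.11, SD, n = 5) were also above.

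The Emx genes, which specify the dorsal cortex, lay lower against the controls. Emx2 measured 8.67, 8.57, 8.51, 8.69 and 8.73 (mean 8.63 ± 0.09, SD, n = 5) and was not separated from the threshold. Emx1 measured 8.37, 8.30, 8.03, 7.93 and 8.17 (mean 8.16 ± 0.19, SD, n = 5) and was called below. Neither gene was above on all arrays. Fezf2, a forebrain patterning factor, was not separated (8.58 ± 0.17, SD, n = 5), while Fezf1 was above (9.30 ± 0.11, SD, n = 5). The nuclear factor genes Nfia (7.79 ± 0.18, SD, n = 5), Nfib (8.35 ± 0.18, SD, n = 5) and Nfix, known for roles in later gliogenesis, were called below, although Nfib was not separated without array 3.

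Of 24 genes of the cortical hem and roof plate, 7 (29.2%) were above, near the 24.8% of all genes, and 6 were not separated. Msx1, a target of BMP signals in the dorsal midline, measured 9.50, 9.75, 9.55, 9.79 and 9.56 (mean 9.63 ± 0.13, SD, n = 5). The zinc finger gene Zic1 (9.71 ± 0.16, SD, n = 5) and the head factor Otx2 (9.65 ± 0.07, SD, n = 5) were above as well. The hem ligands Wnt3a (7.08 ± 0.11, SD, n = 5) and Wnt2b (6.61 ± 0.14, SD, n = 5) and the roof plate factor Lmx1a (7.11 ± 0.12, SD, n = 5) were called below. Wnt8b measured 8.21, 8.74, 8.66, 8.55 and 8.78 (mean 8.59 ± 0.23, SD, n = 5) and Rspo2, a Wnt potentiator, 8.26, 9.03, 8.79, 8.50 and 8.83 (mean 8.68 ± 0.30, SD, n = 5). Both were lowest on array 1, and so was Rspo3 (8.14 against 8.23 to 8.87 on the others). Rspo2 was called above, a call that was lost without array 2, 3, 4 or 5, while Wnt8b was called above without array 1.

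Genes of neighbouring regions were mostly called below. The share below was 81.0% of ventral telencephalon and 87.0% of diencephalon and eye genes, against 70.7% of all genes. Of 21 ventral telencephalon genes 2 were above, the Hedgehog receptor Ptch1 (9.68 ± 0.18, SD, n = 5) and Vax1 (8.66 ± 0.08, SD, n = 5), whose call was lost without array 3, 4 or 5. Nkx2-1, which defines the medial eminence, had 8.01 ± 0.07 (SD, n = 5) and Gsx2, of the lateral eminence, 7.10 ± 0.17 (SD, n = 5), both below. Dlx2 (8.48 ± 0.04, SD, n = 5) and Dlx5 (8.51 ± 0.16, SD, n = 5) were not separated. These factors are used by ventral progenitors, and Dlx5 also by facial mesenchyme and ectoderm. Of 23 diencephalon and eye genes 3 were above, namely Six2 (9.43 ± 0.22, SD, n = 5), Tcf7l2 (9.03 ± 0.10, SD, n = 5) and the patterning ligand Fgf8 (8.69 ± 0.06, SD, n = 5). Six2 is also used by head mesenchyme. Fgf15 and Fgf17, of the same family as Fgf8, were placed in the dorsal telencephalon list. The region that the Fgf8 RNA came from was not tested. The eye field factor Rax (6.53 ± 0.25, SD, n = 5) and the pigment cell factor Mitf (6.08 ± 0.18, SD, n = 5) were below.

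Genes of the caudal nervous system were below the controls with 1 exception. In the midbrain, hindbrain and spinal cord list 96.6% were below, against 70.7% of all genes. Of 29 midbrain, hindbrain and spinal cord genes, only Meis1 was above (8.90 ± 0.10, SD, n = 5), a gene with wider use in the embryo. The midbrain factors En1 (6.45 ± 0.07, SD, n = 5) and En2 (5.20 ± 0.21, SD, n = 5) and the isthmic factor Pax5 (6.26 ± 0.07, SD, n = 5) were called below. All 38 measured Hox genes, which mark the hindbrain and trunk, were called below, from 4.46 for Hoxa2 to 7.66 for Hoxa4, with a median of 5.94. Against the median of the controls 25 of the 38 Hox genes (65.8%) were above, a lower share than the 74.9% of all genes.

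In primitive red cell genes, the globins lay far above the controls and most other genes of the list below them. Of 29 measured genes 8 (27.6%) were above the controls, near the 24.8% of all genes. All 4 globin genes exceeded the 99th percentile of the controls, against 632 of all 20080 genes. The embryonic beta-like globin gene Hbb-y measured 13.32, 13.47, 13.28, 13.34 and 13.16 (mean 13.31 ± 0.11, SD, n = 5) and the second of this kind, Hbb-bh1, 11.84, 11.96, 11.43, 11.63 and 11.22 (mean 11.62 ± 0.30, SD, n = 5). The alpha-like genes Hba-x (12.17 ± 0.20, SD, n = 5) and Hba-a1 (13.05 ± 0.15, SD, n = 5) were above too, although near-identical copies of the alpha gene can share probes. Each of the 4 was highest on array 2. Alas2, the first enzyme of haem synthesis in red cells, measured 8.74, 9.20, 8.77, 9.26 and 8.75 (mean 8.94 ± 0.26, SD, n = 5) and was high on arrays 2 and 4. The erythroid factors Gata1 (7.09 ± 0.10, SD, n = 5) and Klf1 (7.33 ± 0.10, SD, n = 5) were called below.

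Of 26 head mesenchyme genes 14 (53.8%) were above the controls, against 24.8% of all genes, with a median level of 8.80 against 7.19. Twist1, a factor of cranial mesenchyme, measured 9.65, 9.81, 9.88, 10.12 and 9.43 (mean 9.78 ± 0.26, SD, n = 5), and Prrx1 9.32, 9.32, 9.38, 9.62 and 9.37 (mean 9.40 ± 0.13, SD, n = 5). Both were highest on array 4. The collagen genes Col1a1 (9.43 ± 0.06, SD, n = 5), Col1a2 (10.47 ± 0.15, SD, n = 5) and Col3a1 (10.09 ± 0.03, SD, n = 5) and the receptor Pdgfra (9.94 ± 0.11, SD, n = 5) were above on every array. The frontonasal factors Alx1 (9.98 ± 0.19, SD, n = 5) and Alx4 (8.94 ± 0.12, SD, n = 5), which pattern the midface, were above as well. These mesenchymal genes were thus measured in RNA labelled as cortex, beside the dorsal telencephalon genes. How much of the regional, progenitor and cell cycle results such tissue touches was not tested.

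Other non-neural groups were mostly below. The share below was 83.3% of surface ectoderm, 81.8% of neural crest, 81.5% of endothelial and 88.9% of pericyte genes, against 70.7% of all genes. Of 24 surface ectoderm genes 3 were above, Krt18 (8.79 ± 0.25, SD, n = 5), Epcam (8.88 ± 0.26, SD, n = 5) and Cldn6 (9.15 ± 0.21, SD, n = 5), which are genes of simple epithelia, while the skin factor Trp63 was below (7.27 ± 0.09, SD, n = 5). Of 11 neural crest genes 1 was above, Tfap2b (9.12 ± 0.15, SD, n = 5). Of 27 endothelial genes 3 were above (Fli1, Aplnr and Plxnd1, at 8.69 to 8.76), while the junction genes Pecam1 (7.39 ± 0.09, SD, n = 5) and Cdh5 (8.39 ± 0.11, SD, n = 5) were below. Without array 4 the calls of Fli1 and Plxnd1 were lost, and Cdh5 was not separated without array 1, 2 or 3. Kdr, the main receptor for the vessel growth factor, measured 8.49, 8.18, 8.52, 8.44 and 8.77 (mean 8.48 ± 0.21, SD, n = 5) and was not separated.

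Of 9 pericyte genes 1 was above, the receptor Notch3 (9.36 ± 0.08, SD, n = 5), which neuroepithelial cells also use, while Rgs5 (5.30 ± 0.10, SD, n = 5) and Cspg4 (6.58 ± 0.15, SD, n = 5) were below. All 26 macrophage genes were called below, with a median of 6.52, including the receptor Csf1r (6.57 ± 0.11, SD, n = 5), Aif1 (5.41 ± 0.03, SD, n = 5) and Cx3cr1 (7.44 ± 0.11, SD, n = 5). Against the median of the controls 21 of these 26 genes (80.8%) were above, next to 74.9% of all genes. All 29 genes of other organs were called below, with a median of 5.62 next to the control median of 5.57. Albumin (Alb) had 4.74 ± 0.07 and the insulin gene Ins2 5.90 ± 0.08 (SD, n = 5). Of 1066 olfactory receptor genes, 5 (0.469%) were above and the median level was 4.36. Of 20 housekeeping genes 19 were above, with Gusb below (7.88 ± 0.11, SD, n = 5).

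Immediate early and stress genes can respond to the handling of tissue. Of 24 measured, 17 were below (70.8%) against 70.7% of all genes, a share at the background, and 4 were above, namely Jun (8.73 ± 0.07, SD, n = 5), the growth factor Vegfa (8.70 ± 0.08, SD, n = 5), the glucose transporter Slc2a1 (11.40 ± 0.16, SD, n = 5) and Pdk1 (8.88 ± 0.26, SD, n = 5). Fos (6.30 ± 0.13, SD, n = 5), Egr1 (6.26 ± 0.14, SD, n = 5) and Junb (6.65 ± 0.05, SD, n = 5) were below on every array. Magoh, the gene that carries the mutation in the embryos not used here, had 11.05 ± 0.09 (SD, n = 5).

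Differences between the embryos were led by genes of the sex chromosomes. In all, 15 of 20080 genes (0.0747%) had arrays more than 2-fold apart, that is over 1 on the log2 scale, and of the 4971 genes called above this was 0 (0.0%). Xist, the RNA that silences an X chromosome, measured 5.69, 5.37, 10.81, 6.18 and 10.80, high on arrays 3 and 5 and near the control median on the others. Ddx3y, an RNA helicase gene of the Y chromosome, measured 9.06, 9.12, 5.17, 8.88 and 5.39, the opposite pattern. Eif2s3y, Kdm5d and Uty, also on the Y chromosome, were likewise low on arrays 3 and 5 only, whereas Usp9y was low on all 5 (3.66 ± 0.12, SD, n = 5). For the 5 genes with divided values the common standard error was far below their own spread, and with a gene-wise variance (limma with trend and robust settings) they were not separated from the threshold in place of below (adjusted p = 0.116 to 0.579).

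**Figure D3:**
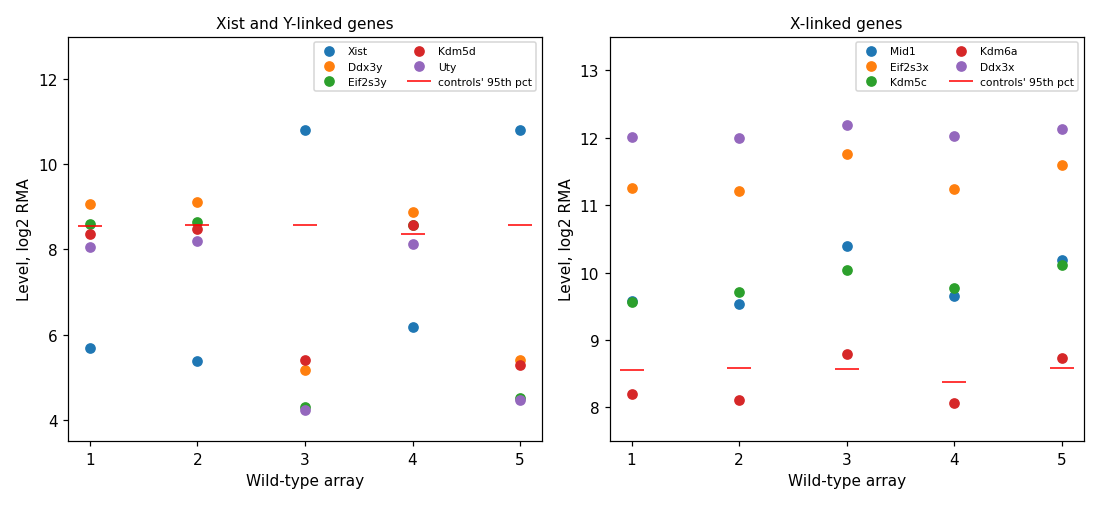
Level (log2) of Xist and Y-linked genes (left) and of X-linked genes (right) on each of the 5 wild-type arrays, 1 point per gene and array, with a red line at the 95th percentile of the controls. Xist is at 10.81 and 10.80 on arrays 3 and 5 and between 5.37 and 6.18 on the others, and Ddx3y is at 5.17 and 5.39 on those 2 arrays and between 8.88 and 9.12 on the others.

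Several X-linked genes shared the pattern of Xist at a smaller size. These genes were chosen after their values were seen, except Mid1. The largest standard deviation among genes called above was that of Mid1, a microtubule-associated ubiquitin ligase gene, which measured 9.57, 9.53, 10.39, 9.65 and 10.19 (mean 9.87 ± 0.40, SD, n = 5). The translation factor gene Eif2s3x measured 11.25, 11.21, 11.76, 11.23 and 11.60, and the demethylase gene Kdm6a 8.20, 8.11, 8.78, 8.06 and 8.73. Kdm5c and Ddx3x were also highest on arrays 3 and 5. Of the genes over 2-fold apart, the X-linked receptor gene Gpr50 measured 7.54, 6.90, 8.51, 7.20 and 7.91, again with its highest values on arrays 3 and 5. Aldh1a1, a retinoic acid synthesis enzyme gene of chromosome 19, measured 7.30 on array 1 and 6.08 to 6.21 on the others.

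**Figure D4:**
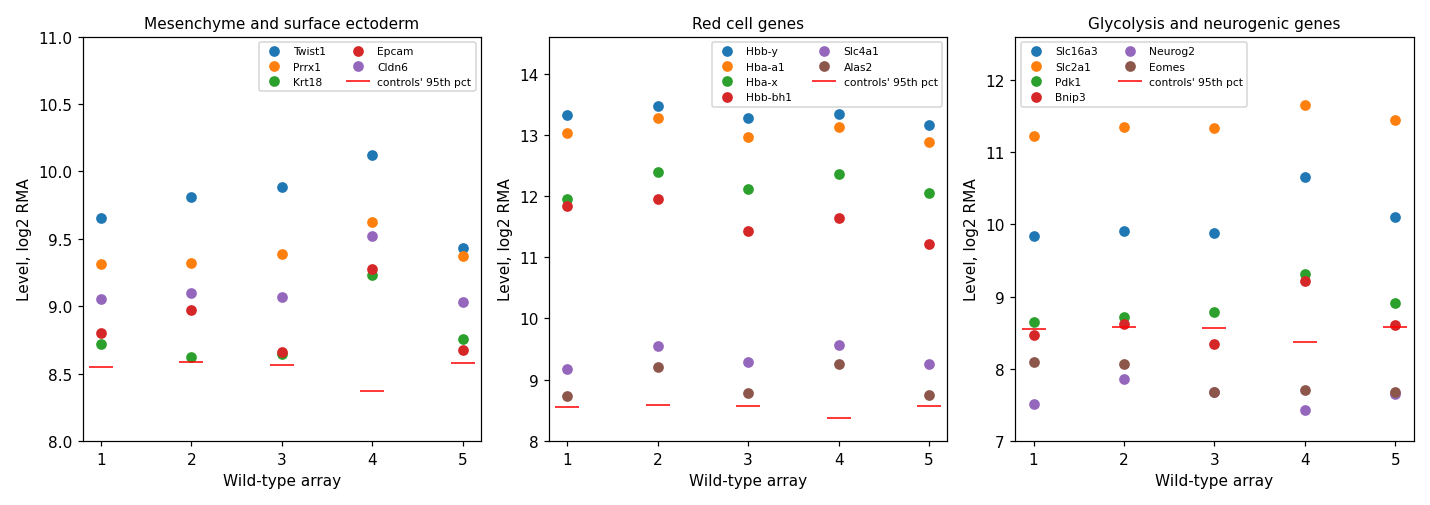
Level (log2) on each of the 5 wild-type arrays of genes that varied between embryos, 1 point per gene and array, with a red line at the 95th percentile of the controls of that array. Krt18, Cldn6, Slc16a3 and Bnip3 are highest on array 4 and the globin genes on array 2.

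The gene groups also deviated together between embryos by small amounts. For each list the deviation of each array from the 5-array mean of a gene was averaged over its members. These deviations have no test, since members share arrays and are not replicates. Neurogenic commitment genes were 0.12 and early neuron genes 0.11 above their mean on array 2, with 14 of 22 and 22 of 40 members highest there, against 18.9% of all genes. Tbr1, Neurog2 and Stmn2 were among these. Other lists were above their mean on array 2 as well, with hem and roof plate genes at 0.09, late neuron genes at 0.07 and dorsal telencephalon genes at 0.07. Of the 20 housekeeping genes 11 were highest there, the same share as of early neuron genes (55%), although their mean deviation there was smaller, at 0.02. Apical progenitor and cell cycle genes moved by 0.04 or less on any array. Array 2 was thus also the array with the highest red cell level, at 0.14 above the mean, followed by array 4 at 0.11, while the other arrays were 0.07 to 0.10 below. Of the 29 red cell genes 14 were highest on array 2 and 13 on array 4, against 18.9% and 25.8% of all genes. Hem and roof plate genes were 0.11 below their mean on array 1, where 1 of 24 was highest, against 16.2% of all genes and 11.9% of genes called above. Array 1 was low more widely, being lowest for 10 of these 24 genes and for 1946 of the 4971 genes called above. Whether blood or dissection had a part in these deviations was not tested.

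Several non-neural lists were highest on array 4, though not all. Surface ectoderm genes were 0.16 above their mean there, with 16 of 24 members highest, and head mesenchyme genes 0.12 above, with 14 of 26. Neural crest genes were 0.07 and macrophage genes 0.09 above. Pericyte genes were 0.07 below their mean there, and endothelial genes 0.01 above. On the same array dorsal telencephalon genes were 0.06 below their mean and 0 of 25 were highest. Over all genes 25.8% were highest on array 4, and of the genes called above 35.8% were. Krt18 measured 8.72, 8.62, 8.65, 9.23 and 8.76 and Cldn6 9.06, 9.10, 9.07, 9.52 and 9.03, each with array 4 alone at the top. Slc16a3, a lactate transporter gene, measured 9.84, 9.91, 9.88, 10.65 and 10.10 and Pdk1, an inhibitor of pyruvate entry, 8.65, 8.71, 8.78, 9.32 and 8.91, also with array 4 at the top. Both respond to low oxygen, as does Bnip3 (9.22 on array 4 against 8.34 to 8.62), and they were picked for these values. Of the 24 immediate early and stress genes 9 were highest and 7 lowest on array 4, and the list deviated there by 0.04. Whether handling or surrounding tissue had a part in these values was not tested. Without array 4 the number of non-neural genes called above was 27 of 196, against 31 with it. Endothelial genes were highest on array 5, 0.08 above their mean, with 14 of 27 members, against 21.9% of all genes.

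**Figure D5:**
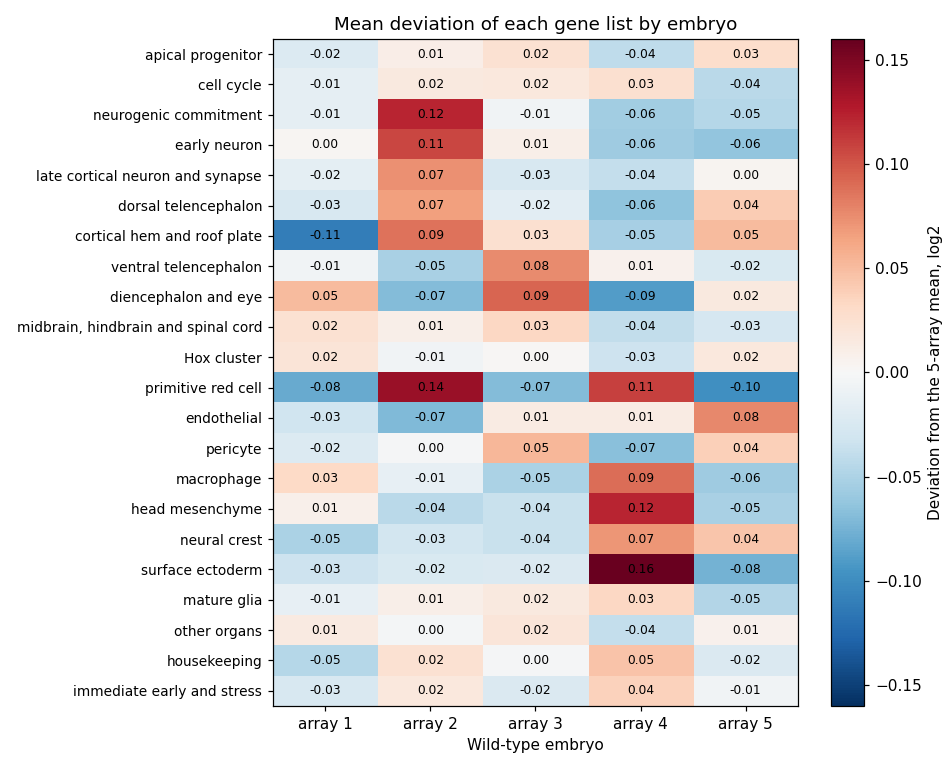
Mean deviation (log2) of each gene list on each of the 5 wild-type arrays from the 5-array mean of its genes, as a colour and a number per cell. Surface ectoderm (0.16) and head mesenchyme (0.12) stand out on array 4, and neurogenic commitment (0.12), early neuron (0.11) and red cell genes (0.14) on array 2.

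Among genes called above, the 12 with the largest spread included genes of several kinds. Beside Mid1, Slc16a3, Rspo2 and Hbb-bh1, they held the retinoic acid enzyme gene Aldh1a3, which was highest on array 4 (9.22 against 8.43 to 8.81). Cluh was low on array 1 alone (8.57 against 9.28 to 9.42), and Mars2, a mitochondrial methionyl-tRNA synthetase gene, was high there alone (9.76 against 8.99 to 9.10). Ide, which encodes insulin-degrading enzyme, measured 9.46, 9.41, 9.46, 10.02 and 9.95, and Tmem254a 9.55, 9.25, 9.31, 10.10 and 10.01. Both were higher on arrays 4 and 5 than on the others. The small nucleolar RNA genes Snord33 (8.76 ± 0.34, SD, n = 5) and Snord22 (9.21 ± 0.31, SD, n = 5) and Slfn3 (10.28 ± 0.35, SD, n = 5) completed the 12. The 6 genes with the smallest spread, Iars, Hpf1, Hspa4, Tdg, Nars and Tsc22d1, had standard deviations of 0.01, and Iars and Nars encode cytoplasmic tRNA synthetases.

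The 20 genes furthest above the controls were largely genes of basic cell functions, but the choice of probe set decided some of them. They included the elongation factor Eef1a1 (13.99 ± 0.04, SD, n = 5), Actb (13.63 ± 0.07, SD, n = 5), the tubulin Tuba1b (13.62 ± 0.05, SD, n = 5), 7 histone genes such as H3c1 (13.78 ± 0.12, SD, n = 5), and the mitochondrially encoded ND2, COX1 and CYTB (13.51 to 13.59). Histone genes are near-identical copies whose probes can share transcripts. First in order were Siglece and Pigt, at 14.29 and 14.26. Siglece has 3 probe sets, with their median at 14.29 as well and the lowest at 5.20. The histone gene H3c7 has 4, with a median of 13.78 and the lowest at 4.18. Tlr4, at 13.52, has a second one at 4.27. Of the 20 genes 12 had several probe sets, and in 3 the lowest was called below the controls. Over all genes, 44.3% of those with several probe sets were called above against 22.8% of those with 1, and in 376 of the 823 called genes with several the lowest probe set was called below.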

How the data were processed

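Total RNA of the cortices of 5 wild-type embryos was measured on 1 array each. The deposited values are log2 expression levels, which the authors made, per the submitters' processing notes, by RMA in Affymetrix Expression Console, with versions not given in the sources used here. RMA subtracts background, equalises the distributions of the arrays and summarises probes, which compresses differences. A second deposited table gave titles and gene numbers, and its 10 columns of per-sample values, whose names match no label, were left aside. Precision is limited by the number of arrays.

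Of 35557 probe sets, 24415 had a gene number and 23322 matched the gene table of GRCm38.p6. Each gene kept its probe set with the highest mean over the 5 arrays, with no filter on low levels, which raises the share of genes with several probe sets that are called. Level minus the same array's 95th percentile of 5222 negative-control probe sets was tested against 0 with limma 3.58.1 in R 4.3.3 (intercept fit, two-sided, Benjamini-Hochberg over 20080 genes). The variance was shrunk fully to a common value. On simulated data, 98% of genes placed 0.5 above the threshold were called, 56% of those at 0.25 and 0.0201% of those at 0. In the simulation 19880 of the 20080 genes were placed at the threshold, whereas in the data most genes were called above or below. Adjustment was therefore stricter in the simulation, and these shares are not rates for the data. The smallest difference called above in the data was 0.129. Tables were made with Python 3.11.15, pandas 2.3.3 and numpy 2.4.6. No batch is given for these arrays, and no genotype was compared.

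Members and gene lists were chosen with earlier results of these data known, and lists have counts and medians but no test. Prdm12, Ahsp, Eng, Pdgfrb, Sox10, Myh2 and Tsix had no measured probe set by this rule. Named by rule were the leading 6 members of each list, list members with a standard deviation of 0.5 or more, the 12 called genes with the largest and 6 with the smallest standard deviation, the 20 genes furthest above the controls, and Magoh. Other named genes were chosen after their values were seen, and a few members of the lists are not reported by name here. Alternatives were other control percentiles, call rules, variance models, probe set choices, normalizations, a filter on dim genes and leaving out each array. Promoters are from RefSeq (GRCm38.p6), and matched 15771 genes by gene number.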

Additional observations from a re-analysis of the deposited data

Results flagged for a closer look

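Values of 188 named genes and gene lists were examined for 1 array far from the other 4, by the gap to the nearest array divided by the whole range. Of these, 14 (7.45%) exceeded the critical value of 0.71. Chance gives about 1 in 20 for independent values that were not chosen by their spread. Some of the genes were chosen by their spread, and list averages reuse members, so the share cannot be set against that rate. Among genes called above the controls, array 4 was far above the others for Cldn6 (ratio 0.864), Krt18 (0.781) and Prrx1 (0.78). Array 1 was far below the others for Cluh (0.842), and far above for Mars2 (0.849) and Hpf1 (0.784), although Hpf1 moved by only 0.01 in standard deviation. Among genes called below, array 2 was high for Myh1 (0.747) and Cux2 (0.714). Array 5 was high for Rgs5 (0.778) and Cldn5 (0.715) and low for Ins2 (0.749), and array 3 was low for Alb (0.717). Of the list averages, surface ectoderm was far above the others on array 4 (0.775) and neurogenic commitment on array 2 (0.718). The 14 were spread over all 5 arrays, with 3, 3, 1, 4 and 3 on arrays 1 to 5.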

How the results depend on the processing

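The number of genes called depended most on the control percentile. The 4971 genes above the controls became 7599 against the 90th percentile, 632 against the 99th and 15046 against the median. Progenitor genes were 67 of 73 and became 21 at the 99th percentile. Neuron genes were 14 and became 26, 0 and 83 at the 90th, the 99th and the median, regional genes were 25 and became 56, 1 and 139, and non-neural genes were 31 and became 48, 4 and 169. Olfactory receptor genes were 5 and became 0 at the 99th percentile, 131 at the median, and 3 with the lowest or with the average of the probe sets of a gene. Genes over 2-fold apart between embryos were 0 among those called above, 11 against the control median and 2 when a call needed 3 of 5 arrays. Leaving out each array in turn gave 4898 to 4949 genes above, 66 to 67 progenitor, 14 neuron, 23 to 26 regional, 27 to 31 non-neural and 5 olfactory receptor genes, and 0 genes over 2-fold apart. The other alternatives kept each of these counts within 1.5 times. Of 391 counts per list, 332 stayed within 1.5 times. Of 1670 gene levels compared, 47 moved by over 1 standard deviation, 24 with the lowest probe set and 23 with the average of probe sets. With an intensity trend and robust variance, 5 calls changed (Xist, Ddx3y, Eif2s3y, Kdm5d and Uty). No paired analysis was possible because only 1 group was analysed. Levels near 8.66, the lowest mean level called above, are limited by the signal over background.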

Other observations

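Genes that do not encode proteins were called above the controls in different shares. Of 19222 protein-coding genes 25.5% were above, against 4.14% of 483 long noncoding RNA genes and 16% of 175 pseudogenes. Of 16 small nucleolar RNA genes 5 were above, and their median standard deviation was 0.16 against 0.09 for protein-coding genes. The probe sets of pseudogenes can share sequence with their parent genes.

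The 5 olfactory receptor genes called above were Olfr767 (9.66 ± 0.05, SD, n = 5), Olfr1419 (9.55 ± 0.15, SD, n = 5), Olfr1174 (9.23 ± 0.10, SD, n = 5), Olfr814 (9.20 ± 0.13, SD, n = 5) and Olfr239 (8.81 ± 0.10, SD, n = 5). Each was above the threshold on all 5 arrays. Olfr1419 and Olfr814 have several probe sets. Genes that no list held were over 2-fold apart between embryos while below the controls, among them Slc15a2, which measured 5.19 on array 1 and 5.97 to 6.44 on the others, and Gm26504, which measured 5.25 and 5.47 on arrays 4 and 5 and 6.15 to 6.64 on the others.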
